A study of Mus musculus with 2 samples.

Results

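Differentially methylated regions were described at 9 genes for transcription factors that set bone, cartilage and tendon fate. The genes were Runx1, Runx2, Runx3, Sp7, Sox5, Sox6, Sox9, Scx and Mkx. A region belonged to a gene when it overlapped the RefSeq gene body or the 50 kb on either side, by at least 1 bp. Of the 34139 regions in the authors' deposited list, 79 met this rule. The list compares PDGFRα+ adipose progenitors treated with DEX (dexamethasone, a synthetic glucocorticoid) with CD137+ adipose progenitors treated with DEX, by whole-genome bisulfite sequencing of 1 library per group. Bisulfite converts unmethylated cytosines, so that cytosines still read as such are counted as methylated. Both groups came from C57BL/6 mice, were sorted with magnetic beads from subcutaneous or visceral fat, and were grown and then placed in adipogenic medium. The labels do not say which depot, how many animals or which age stands behind each library, nor whether animals were pooled, and both groups carry the DEX treatment, so no region here can be read as an effect of DEX.

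Each region carries only a signed score, the authors' own value, with no methylation level for either library, no number of CpG sites and no read depth. The depth is therefore unknown. The order of subtraction is not stated. The list names the PDGFRα+ sample before the CD137+ sample. If the score is PDGFRα+ minus CD137+, a negative score means less methylation in PDGFRα+ cells, but the text keeps to negative and positive scores. With no replicate there was no spread to measure a difference by, and no test was run. Intervals on shares are 95% Wilson intervals and cover the counting of regions only, since regions are not replicates. The genes of the sorted antigens both had a region in the window, as did 68.5% of all protein-coding genes. Pdgfra had 2, of which the stronger scored -137, and Tnfrsf9, which encodes CD137, had 1, with a score of -225 at 17.8 kb from the gene. A list of regions gives no expression, so it could not check the identity of the sorted cells.

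Fat cells, osteoblasts, chondrocytes and tendon cells all descend from mesenchymal progenitors, and the factors encoded by these genes direct the choice between them. RUNX proteins bind DNA together with CBFβ. RUNX2 is the main determinant of the osteoblast, SP7 (osterix) acts after it, RUNX1 is best known from blood stem cells and RUNX3 from T cells and maturing cartilage. SOX9 starts the cartilage programme and SOX5 and SOX6, which lack a transactivation domain, work beside it. SCX (scleraxis) is a bHLH factor of tendon progenitors, and MKX (Mohawk) a homeobox factor of maturing tendon.

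The sequences around annotated transcription starts are shown first, because 1 of them lay under a region and because the RUNX genes share a sequence element there. The RefSeq promoter table (GRCm38.p6) spans 250 bases before to 50 bases after each start, and 5 of the 9 genes matched it, with 12 starts in all. Sp7, Sox9, Scx and Mkx were not matched. A region reached 1 of these 12 promoters, the second of the 6 listed for Sox6, where 1.21% of the 32851 promoters in the table were met by any region. That promoter lies at chr7:116030998-116031297 (GRCm38.p6, minus strand). The region, 181 bp wide with a score of 102, runs from 5 bases before the start to 175 bases after it. Capitals mark the 55 promoter bases that lie inside the region, which hold 3 of the 13 CpG sites of this promoter.
Sox6 second start: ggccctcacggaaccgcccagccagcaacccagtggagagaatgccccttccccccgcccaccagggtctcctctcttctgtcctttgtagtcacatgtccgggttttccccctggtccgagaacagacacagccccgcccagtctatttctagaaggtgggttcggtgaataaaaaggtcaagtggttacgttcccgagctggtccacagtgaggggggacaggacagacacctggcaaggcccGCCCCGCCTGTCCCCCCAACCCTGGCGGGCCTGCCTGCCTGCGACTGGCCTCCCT

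The first listed starts of the RUNX genes hold an 18-base element in common. It reads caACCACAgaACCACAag, with the RUNX-binding letters in capitals, on the coding strand of all 3 genes. It begins 26 bases after the listed start of Runx1 and 21 bases after that of Runx2, and 136 bases before that of Runx3. The search letters were TGTGGT or its reverse complement ACCACA, on both strands. These letters occurred in 16.8% of all promoters of the table, whereas a pair of them on 1 strand with 2 bases between occurred in 7 of 32851 (0.0213%), of which 3 are the ones shown here. The matches of a pair do not overlap each other, nor any other motif searched. A match is a description of the letters and not a bound site. The first starts of Runx1 (chr16:92826025-92826324, minus strand), Runx2 (chr17:44814578-44814877, minus strand) and Runx3 (chr4:135120395-135120694, plus strand) are given with every match in capitals, to show the element in its place.
Runx1 first start: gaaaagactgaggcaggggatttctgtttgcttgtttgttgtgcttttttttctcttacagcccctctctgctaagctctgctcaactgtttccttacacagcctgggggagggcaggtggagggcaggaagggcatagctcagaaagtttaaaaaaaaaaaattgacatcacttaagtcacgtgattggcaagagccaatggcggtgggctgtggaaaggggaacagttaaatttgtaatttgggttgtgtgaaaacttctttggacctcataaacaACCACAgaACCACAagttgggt
Runx2 first start: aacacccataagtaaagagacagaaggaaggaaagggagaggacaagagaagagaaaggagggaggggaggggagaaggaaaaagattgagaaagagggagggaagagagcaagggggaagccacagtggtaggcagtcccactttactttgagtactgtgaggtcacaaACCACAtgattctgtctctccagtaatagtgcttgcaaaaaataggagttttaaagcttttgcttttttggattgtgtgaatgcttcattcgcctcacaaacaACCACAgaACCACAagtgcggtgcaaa
Runx3 first start: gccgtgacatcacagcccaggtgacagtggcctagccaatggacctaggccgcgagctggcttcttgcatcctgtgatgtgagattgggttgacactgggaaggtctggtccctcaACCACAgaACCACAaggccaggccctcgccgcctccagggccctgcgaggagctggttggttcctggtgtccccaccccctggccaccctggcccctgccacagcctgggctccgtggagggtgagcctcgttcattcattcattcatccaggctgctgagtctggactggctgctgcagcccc

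In the promoter table Runx1 and Runx3 each have a second, internal start, which is far richer in CpG. For Runx2 it lists 1 start, and distances to any start not listed were not measured. Runx1 had 2 CpG sites in the 300 bases around its first start and 35 around its second (chr16:92697280-92697579, minus strand). Runx3 had 8 and 45 (second start chr4:135152295-135152594, plus strand), against a median of 7 over all promoters (quartiles 3 and 20). Both internal promoters are shown with each CpG in capitals, since they hold the most CpG sites of the 12 promoters counted and no region.
Runx1 second start: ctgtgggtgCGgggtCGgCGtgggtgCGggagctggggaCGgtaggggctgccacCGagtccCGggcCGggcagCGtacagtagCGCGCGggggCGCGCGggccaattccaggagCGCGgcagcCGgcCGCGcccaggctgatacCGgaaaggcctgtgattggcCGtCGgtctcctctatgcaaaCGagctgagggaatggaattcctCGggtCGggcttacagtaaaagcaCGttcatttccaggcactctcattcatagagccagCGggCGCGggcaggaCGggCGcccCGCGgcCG
Runx3 second start: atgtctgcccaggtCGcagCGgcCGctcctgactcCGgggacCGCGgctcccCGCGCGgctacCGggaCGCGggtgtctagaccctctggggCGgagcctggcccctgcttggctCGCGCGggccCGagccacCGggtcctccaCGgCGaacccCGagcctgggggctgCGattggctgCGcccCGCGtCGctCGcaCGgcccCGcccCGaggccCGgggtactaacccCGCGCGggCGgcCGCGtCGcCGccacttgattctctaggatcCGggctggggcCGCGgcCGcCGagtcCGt
None of the 5 listed RUNX promoters was met by a region. At Runx1 the nearest region lay 4.34 kb upstream of the second start (score 58.5), and the one nearest to the first start lay 22.0 kb upstream of it (score -59.0). At Runx3 the nearest was 40.6 kb upstream of the first start (score 78.4). At Runx2 the nearest was 108 kb downstream of the listed start (score -90.6).

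As a group the 9 genes held nearly equal numbers of negative and positive regions, where the whole list is mostly negative. Of their 79 regions 40 were negative, or 50.6% (39.8 to 61.4), against 67.4% of the list and 67.0% of the 25416 regions within 50 kb of any protein-coding gene. The median absolute score was 51.3 at the 9 genes and 49.4 in the list, and the median width 103 bp and 112 bp. An absolute score of 100 or more was reached by 13 of the 79 regions (16.5%), a share close to the 15.5% of the list. Of those 13, 8 were positive and 5 negative, against 1731 positive and 3550 negative in the list at the same score. At least 1 region was found at 8 of the 9 genes, and 68.5% of the 21887 protein-coding genes had one within the same distance. A region in the gene body itself was found at 7 of the 9, against 28.9% of protein-coding genes. A region with an absolute score of 100 or more was found at 6 of the 9, against 24.8%. Runx1, Runx2, Sox5 and Sox6 are long genes, of 225 to 954 kb, and the part of gene length in these counts was not tested.

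**Figure D1:**
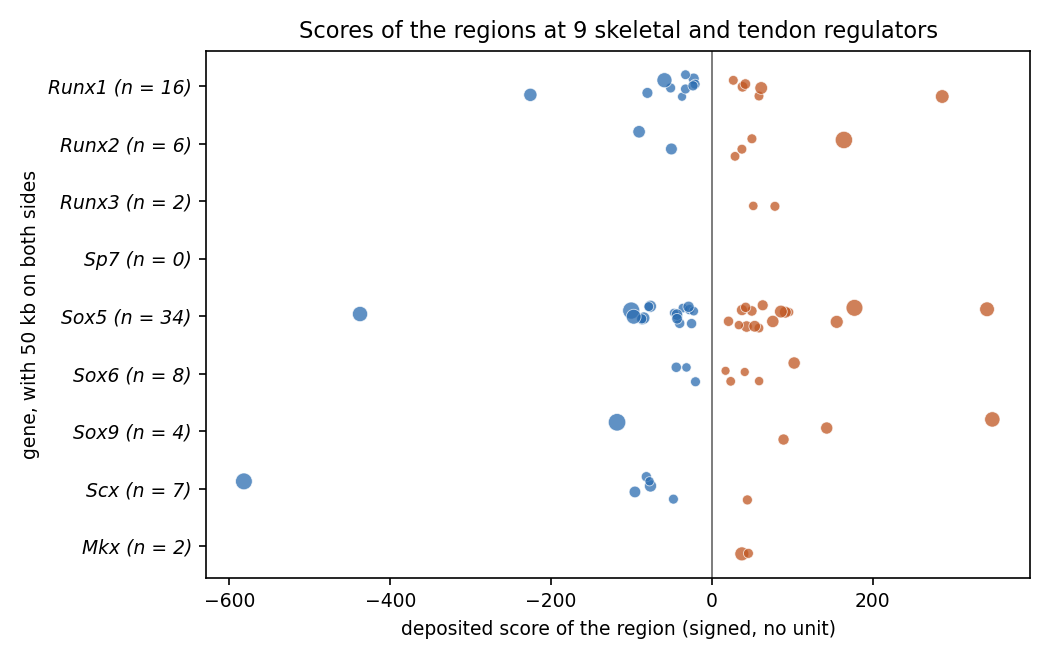
Deposited score of each of the 79 regions (x axis, signed, no unit) by gene (y axis, gene with 50 kb on both sides); each point is a region, larger points are wider regions, blue is negative and orange positive, and the vertical spread within a row carries no meaning. The largest scores are -582 at Scx, -438 and 342 at Sox5, 349 at Sox9 and 286 at Runx1, and Sp7 has no region.

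The signs were counted inside and outside the genes, and the difference was not tested. Inside the genes 26 of 61 regions were negative, or 42.6% (31.0 to 55.1), against 66.8% of the 17444 regions in any protein-coding gene body. Outside the genes 14 of 18 were negative, or 77.8% (54.8 to 91.0). The intervals of both shares overlap from 54.8% to 55.1%, and an overlap does not show that the shares are equal. The intervals also treat regions as independent, whereas 94.6% of pairs in the list less than 1 kb apart had the same sign. They are therefore too narrow to separate the shares. Of the 14 flanking regions in no protein-coding gene 10 were negative (71.4%), close to the 67.5% of all 7972 such regions within 50 kb of a protein-coding gene. All 6 flanking regions of Runx1 and all 4 of Scx were negative, whereas the flanks of the other genes had 4 negative regions of 8. Of the 18 flanking regions, 8 lay in another gene (Gm30224 beside Runx1, Gm32069 beside Sox5, and Bop1 and Mroh1 beside Scx), and all of these were negative. By gene, 3 of the 8 with regions (Runx1, Sox5 and Scx) had more negative than positive regions, against 65.4% of protein-coding genes with a region. The strongest region was positive at 6 of the 8, against 31.4%. Runx3 and Mkx had positive regions only, 2 each. Positive regions only were seen at 14.5% of protein-coding genes with any region and at 6.57% of those with at least 2. Genes with more than 2 regions are in both shares, so neither is the share for genes with 2 regions.

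**Figure D2:**
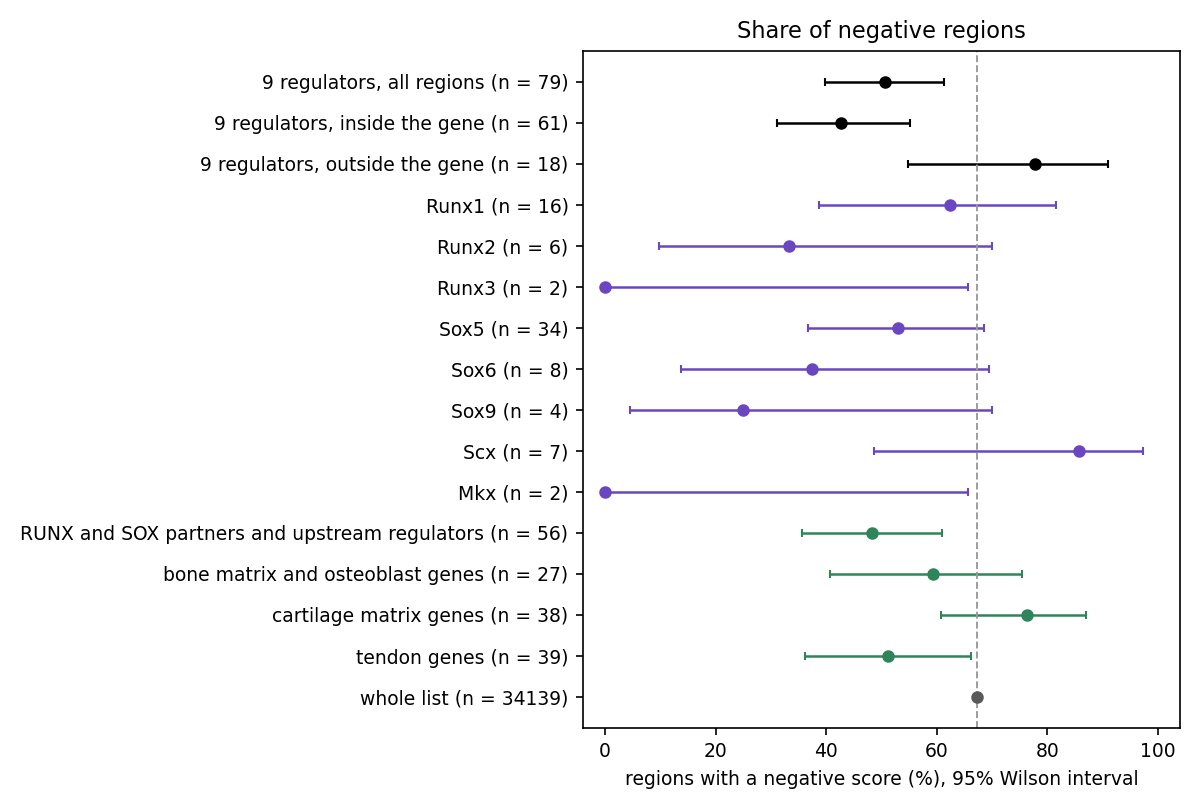
Percent of regions with a negative score (x axis) for the 9 genes together, inside and outside the gene bodies, for each gene with a region, for 4 lists of related genes and for the whole list; bars are 95% Wilson intervals and the dashed line marks the whole list at 67.4%. The regions inside the 9 genes stand at 42.6%, with an interval that ends at 55.1%, whereas most single genes have intervals that reach the line.

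Runx1 held both signs at high scores. The gene lies on chromosome 16 from 92601466 to 92826074 (mm10), on the minus strand, and had 16 regions, or 4.93 per 100 kb of window, which was above 96.9% of protein-coding genes. Inside the gene were 6 positive and 4 negative regions. The strongest, of 248 bp at 92605816 to 92606063, scored 286 and lay 4.35 kb inside the end of the gene opposite its first start. It ranked 425 of 34139 by absolute score. The strongest negative region scored -226 over 226 bp (92684548 to 92684773), 12.6 kb downstream of the second, CpG-rich start. The other 8 regions in the gene ranged from -51.3 to 61.3. The 6 flanking regions scored between -20.9 and -80.2, and the nearest of them to the first start lay 22.0 kb upstream of it. No other protein-coding gene lies in this window. Clic6, outside the window, is still the nearest protein-coding gene to the flanking regions of -37.2 and -80.2. The gene body of Runx1 alone was 40% negative, against 62.5% with the flanks.

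Runx2 had fewer and mostly positive regions. This gene of 319 kb (chromosome 17, 44495987 to 44814797, minus strand) had 6, all inside it, or 1.43 per 100 kb. The strongest scored 164 over 459 bp (44592717 to 44593175), the second widest region at any of the 9 genes, so that its score per bp was only 0.358, below the 0.430 that is the median of the list. The other 3 positive regions scored 28.7, 37.3 and 49.8, and the 2 negative regions -50.4 and -90.6. The 4 regions nearest to the listed Runx2 start fell between 108 and 132 kb downstream of it, with alternating signs. Supt3, which overlaps this window, held none of them.

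Runx3 had no region in the gene (chromosome 4, 135120645 to 135177990, plus strand). Both of its regions lay outside any annotated gene, at 40.6 kb before the lower-numbered end (score 78.4) and 22.9 kb beyond the upper one (score 51.5). The nearest protein-coding gene to the region of score 51.5 is Clic4. Sp7 (chromosome 15, 102356603 to 102367035) had no region in its window at all, which also holds 5 other protein-coding genes. The nearest region, just past the limit at 53.8 kb, scored -70.9. Across the 3 RUNX genes 12 of 24 regions were negative, with a median absolute score of 50.1. Runx2 and Sp7, the osteoblast factors, together had 6 regions, 2 of them negative.

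**Figure D3:**
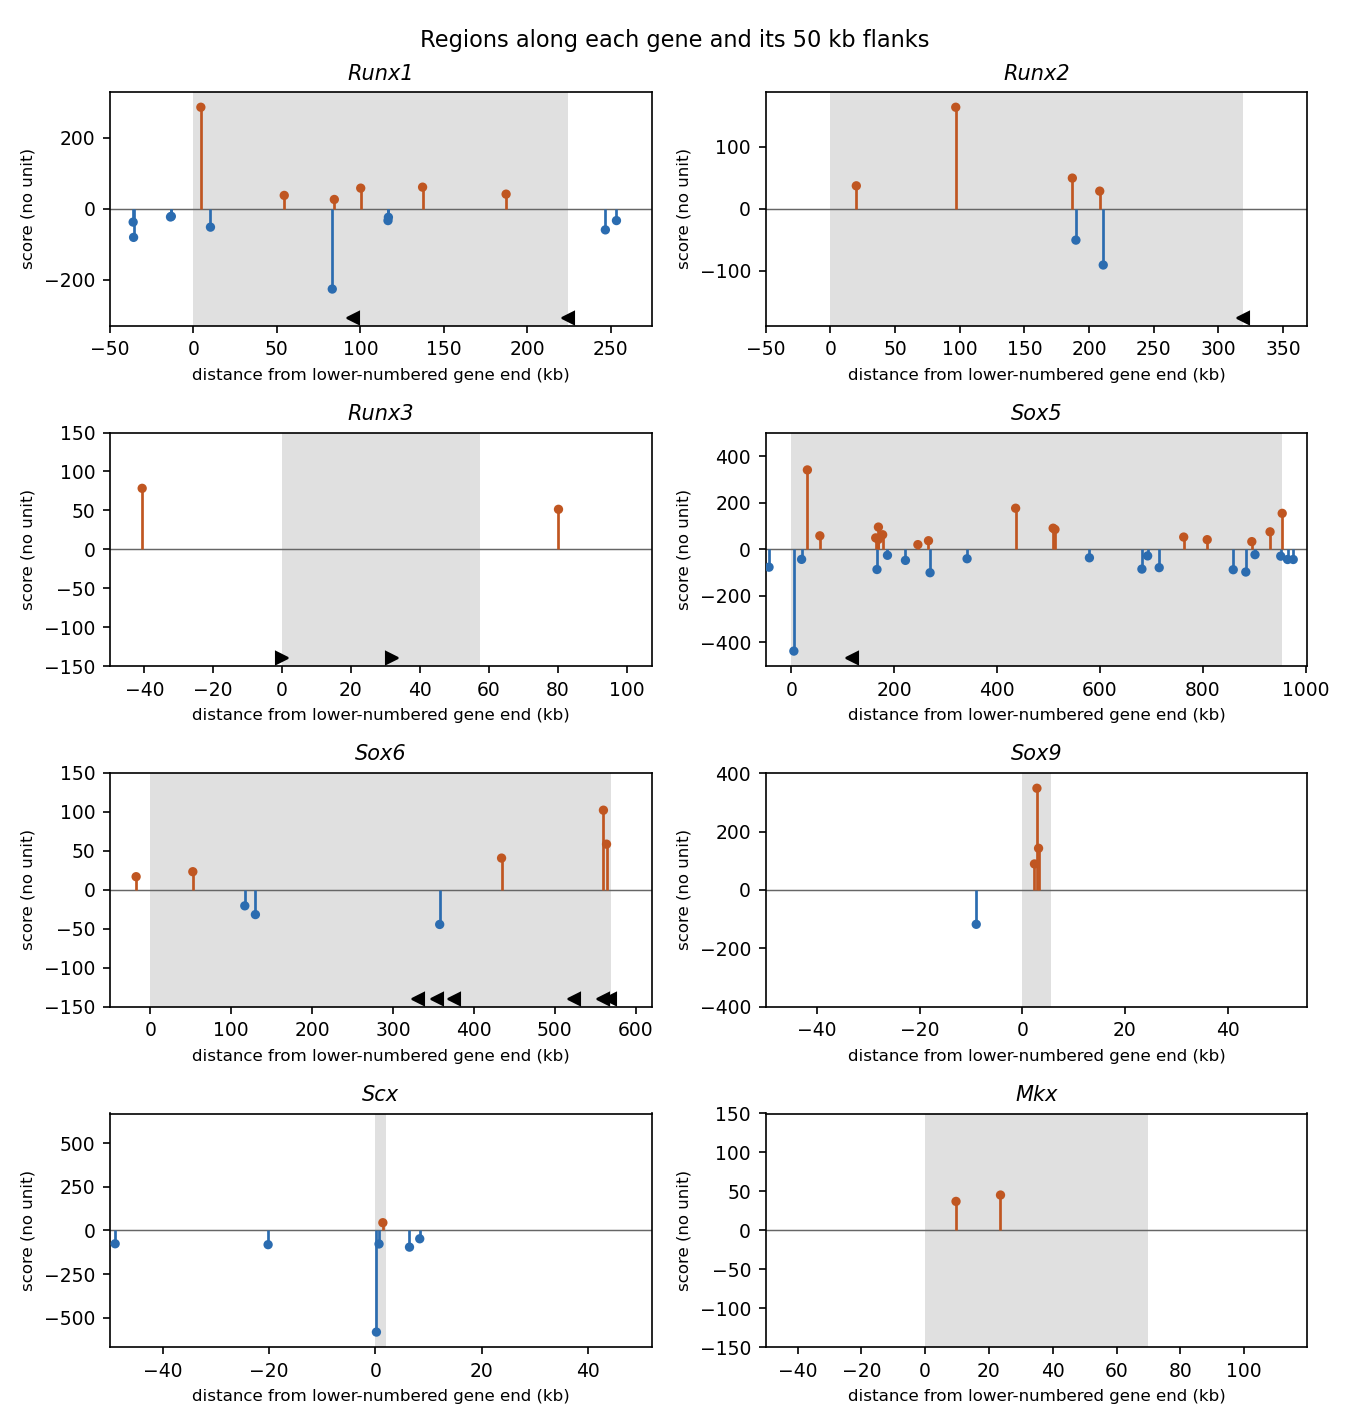
Regions along the 8 genes that have any; the x axis is the distance in kb from the lower-numbered end of the gene, grey marks the gene body, each stem is a region with its deposited score on the y axis (signed, no unit; the scale differs between panels), and black arrowheads at the bottom mark the starts in the RefSeq promoter table with their direction. The flanking regions of Runx1 and Scx all point down, Sox5 carries both signs along its length, and the region of score 102 at Sox6 stands on a start.

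Sox5 accounted for 34 of the 79 regions. It is a gene of 954 kb (chromosome 6, 143828425 to 144782287), and 30 of its regions lay inside it. Per 100 kb of window it had 3.23 regions, above 88.7% of all protein-coding genes and above 93.4% of the 227 protein-coding genes of at least 500 kb, whose median was 0.971 (quartiles 0.483 and 1.83). The signs were mixed, with 18 negative and 16 positive regions. They changed 16 times along the window, and no more than 4 neighbours in a row had the same sign. The 2 strongest lay near the lower-numbered end, which is the far end of this minus-strand gene. The first scored -438 over 333 bp (143833214 to 143833546), 4.79 kb inside the gene, and ranked 138 in the list. The second scored 342 over 305 bp (143859559 to 143859863), 31.1 kb inside, and ranked 254. The other 3 whose absolute score reached 100 scored 177, 155 and -100. The one of 155 lay 0.705 kb beyond the upper-numbered end, which on this strand is the upstream end of the gene. The other 16 negative regions ranged from -22.6 to -97.3 and the other 13 positive ones from 20.6 to 96.2. The densest stretch lay in the gene body, where 5 regions between 143992525 and 144006113 scored 49.6, -86.5, 43.1, 96.2 and 63.2. The single Sox5 start in the promoter table is internal, and no region was found within 45.4 kb of it.

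Sox6, a shorter gene than Sox5, had fewer and weaker regions. The gene of 570 kb (chromosome 7, 115470872 to 116040776, minus strand) had 8, or 1.19 per 100 kb. The region at the second start, described above with its sequence, was the strongest and the only one with a score past 100. Another positive region, of score 58.7, lay 3.72 kb upstream of that start and 3.92 kb downstream of the first. The promoter under the region also holds agaaca, the core letters of a glucocorticoid receptor site, searched as AGAACA on both strands and found in 19.0% of all promoters. They lie 130 bases before the start and outside the region. The listed Sox5 promoter, which no region reached, holds these letters as well, as the reverse complement. The 3 negative regions at Sox6 were weak, at -20.4, -31.6 and -44.3, and the other 3 positive ones scored 17.0, 23.4 and 40.8. Sox5 and Sox6 together were evenly split, with 21 negative and 21 positive regions, whereas the regions near all genes of at least 500 kb were 68.8% negative.

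Sox9 differed from both in having its positive regions packed in a short stretch. The gene spans only 5.55 kb (chromosome 11, 112782210 to 112787757). All 3 regions in it were positive, with scores of 89.1, 349 and 143 from the lower to the upper coordinate, and they fell within 951 bp (112784514 to 112785464), of which they covered 644 bp. The middle one, of 337 bp at 112784889 to 112785225, ranked 239 in the list. Its neighbours lay 244 and 63 bp from it. The remaining region lay 8.74 kb below the gene, between genes, and was negative, with a score of -118 over 468 bp, the widest at any of the 9 genes but with only 0.252 per bp. No exon annotation was used, so none of these regions is called exonic or intronic.

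**Figure D4:**
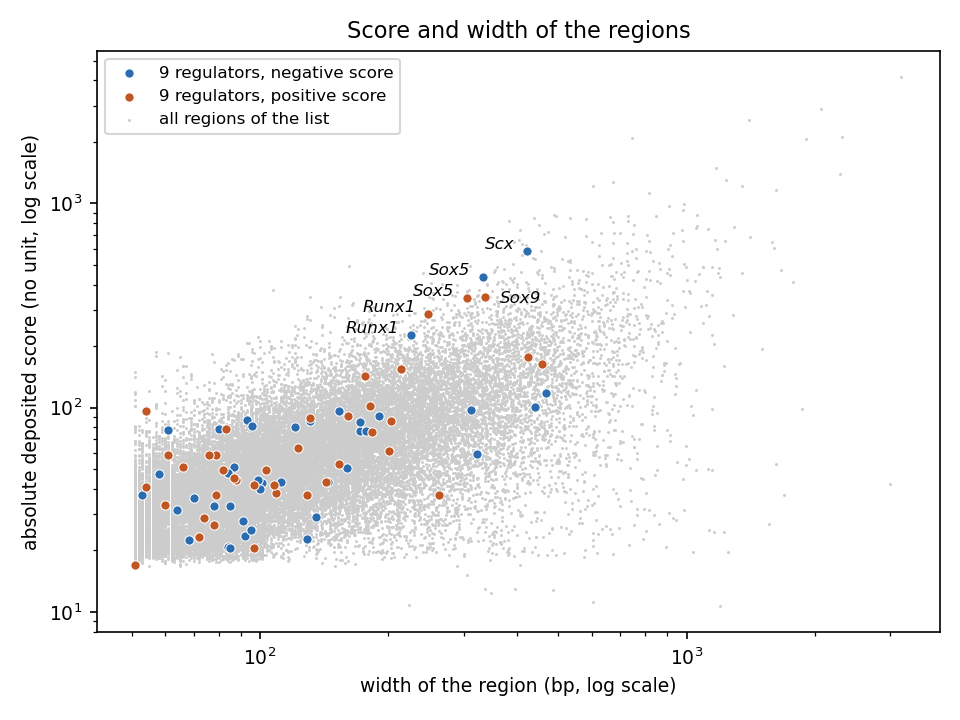
Absolute deposited score (y axis, no unit, log scale) against width (x axis, bp, log scale) for the regions at the 9 genes with negative (blue) and positive (orange) scores and for the whole list (grey). The labelled regions at Scx, Sox5, Sox9 and Runx1 lie toward the upper edge of the list for their width, with 0.999 to 1.38 score units per bp against a list median of 0.430.

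Of the tendon factors, Scx had the strongest region at any of the 9 genes and Mkx only weak ones. Scx is a gene of 2.06 kb (chromosome 15, 76457411 to 76459468). A region of 423 bp at 76457393 to 76457815 covered its lower-numbered end and scored -582, rank 69 of 34139 and 1.38 per bp. The other 2 regions in the gene scored -77.6 and 44.1, and together the 3 covered 26.9% of the gene. Scx lies within the span of Bop1, a ribosome biogenesis gene, so these 3 regions belong to both and cannot be assigned to either alone. Of the 4 flanking regions, 2 lay in Bop1 (scores -95.7 and -47.9) and 2 in Mroh1 (-81.5 and -76.4). The window had 6.86 regions per 100 kb, above 99.2% of protein-coding genes. Mkx (chromosome 18, 6934966 to 7004779) had 2 positive regions, both inside the gene, with scores of 37.2 over 263 bp and 45.4 over 87 bp.

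Set in order of their strongest region, the genes ran from Scx (absolute score 582) through Sox5 (438), Sox9 (349), Runx1 (286), Runx2 (164), Sox6 (102) and Runx3 (78.4) to Mkx (45.4), with Sp7 last. There is no error on these scores, so it cannot be said which neighbours in this order differ. By absolute score per bp every rank but that of Mkx moved. Sox5 then came first, with 1.78 per bp for a region of 54 bp, followed by Scx (1.38), Runx1 (1.16), Sox9 (1.03), Sox6, Runx3, Runx2 and Mkx. By regions per 100 kb the order was Scx, Runx1, Sox9, Sox5, Runx2, Runx3, Sox6 and Mkx, all above the median of 0.955 over all protein-coding genes, where Sp7 stood at 0. The first place of Scx rests partly on its neighbours. Its count fell from 7 to 3 when regions outside Scx but inside another protein-coding gene were left out. The flanking region that came closest to the 50 kb limit from inside was that of Scx at 48.9 kb (score -76.4). The nearest one left out lay 50.6 kb from Runx3 (score 84.1). Neighbouring regions less than 1 kb apart formed 8 pairs at Runx1, Sox5, Sox9 and Scx, and 7 of the pairs had 1 sign, against 94.6% of the 2635 such pairs in the list. The exception was the pair of -77.6 and 44.1 inside Scx.

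A total of 53 genes that act with these factors were looked up with the same window, in 4 lists, and no region was shared with the 9 genes. Partners and upstream regulators had a region at 15 of 16 genes, against 68.5% of protein-coding genes, and 27 of their 56 regions were negative (48.2%, 35.7 to 61.0), against 67.4% of the list. Dlx5 and Dlx6 have the same single region, so the 15 genes were not all reached by separate regions. The median absolute score of the 56 regions was 64.4. The largest scores were 654 at Twist1, whose product holds RUNX2 in check, 182 at Twist2, its relative, and -167 at Msx1, a homeobox gene of the facial skeleton. Twist1 had 11 regions, all positive and all outside the gene, whereas Msx1 had 6 of 7 negative and Twist2 5 of 9. Cbfb, which encodes the partner of all RUNX proteins, had a single region, with a score of 43.3 at 6.08 kb from the gene.

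In the bone, cartilage and tendon lists the median absolute scores were lower than at these partners and regulators. Osteoblast and bone matrix genes had a region at 13 of 13, against 68.5% of protein-coding genes. Of their 27 regions 16 were negative (59.3%, 40.7 to 75.5), with an interval that holds the 67.4% of the whole list, and the median absolute score was 55.7. Neighbouring genes in this list share regions, as Bglap and Bglap2 do, and Ibsp and Mepe. The largest scores were 198 at Alpl (alkaline phosphatase), 138 at Spp1 (osteopontin) and 98.9 at Col1a2 (a type I collagen chain), none of them inside the gene. Cartilage matrix genes had a region at 11 of 13, and 29 of 38 regions were negative (76.3%, 60.8 to 87.0), again with the 67.4% of the list inside the interval. Their median absolute score was 47.0, against 49.4 in the list. Their largest scores were 178 at Col11a2, -147 at Comp and 112 at Col9a3, all outside the gene. SOX5, SOX6 and SOX9 are known to drive genes of this list. At their own genes 22 of 46 regions were negative (47.8%, 34.1 to 61.9).

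Tendon genes had a region at 9 of 11, against 68.5% of protein-coding genes. Of their 39 regions 20 were negative (51.3%, 36.2 to 66.1), against 67.4% of the list, and the median absolute score was 53.9. Tgfb2, which encodes a TGF-β ligand needed by tendon progenitors, had 5 regions, all negative and the strongest at -167. Tgfbr2, the type II receptor of that pathway, had 5 regions, all positive and all inside the gene, the strongest at 115. Of protein-coding genes with at least 2 regions, 6.57% had positive regions only. The share with negative regions only was not computed, and a link between the signs at Tgfb2 and Tgfbr2 was not tested. Thbs4, a thrombospondin of the tendon matrix, had 2 negative regions and 1 positive, the strongest at -89.4. Across the 4 lists the share of genes with a region of absolute score 100 or more was 8 of 16 for partners and regulators, 2 of 13 for bone matrix, 3 of 13 for cartilage matrix and 2 of 11 for tendon genes, against 24.8% of protein-coding genes.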

How the data were processed

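The authors' deposited list holds a position and a signed score for each region, with no header. Per the submitters' processing notes its build is mm10. How reads were aligned and regions were called, and at what coverage, is not given in the sources here, so the score served only to describe and rank regions of this list. Regions do not overlap (0 overlaps) and the narrowest is 51 bp. Positions count from 1, taking the list as BED. Genes came from a RefSeq table of GRCm38.p6, the assembly that mm10 names, and all 9 genes and 53 related genes matched by symbol. Strand came from the RefSeq promoter table, and no exon annotation was used.

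Overlaps, shares and Wilson intervals were computed with Python 3.11.15, pandas 2.3.3 and SciPy 1.17.1, and the overlap counts were tested on simulated data. All 9 genes are named, as are the 3 genes of each related list with the largest absolute score, Pdgfra, Tnfrsf9 and other protein-coding genes that hold a counted region. Cbfb, Dlx5, Dlx6, Bglap, Bglap2, Ibsp, Mepe, Supt3, Clic4, Clic6, Gm30224 and Gm32069 fall outside this rule and were named after their values were seen. The genes and lists were chosen with earlier results of these data known. With 1 library per group there is no test. Alternatives changed the window, score, width, overlap and assignment. A planned comparison of protein sequences was not run, since no protein table was used here, and region sequences were read only where a promoter of the table covers them.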

Additional observations from a re-analysis of the deposited data

How the results depend on the processing

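The count of 8 genes with a region, the 79 regions and the 50.6% negative share were recomputed under 11 other settings and, chosen after seeing the data, without each gene in turn. The number of regions was 41 with an absolute score of 50 or more, 13 with 100 or more (38.5% negative), 42 with a width of at least 100 bp, 37 without Sox5 and Sox6 and 45 without Sox5 alone. Only with an absolute score of 100 or more did the negative share leave the interval of 39.8% to 61.4%. By gene, the balance of signs turned at Runx1 (40% negative in the gene body or with 5 kb), at Runx2 (66.7% with an absolute score of 50 or more or a width of at least 100 bp) and at Sox5 (48.4% with 5 kb, 44.4% with an absolute score of 50 or more and 40% with 100 or more). With 100 kb on both sides the strongest score became -239 at Runx3 and -114 at Mkx. These changes follow from which regions each setting keeps.

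No paired analysis was possible because each group has 1 library. The unknown coverage limits every value: neither a weak score nor the lack of a region at a gene shows that methylation was equal there.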
